A study of Mus musculus with 12 samples.

Results

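Adipoq, Lep, Cfd, Plin1, Plin4, Cidec, Fabp4 and Car3 are genes of adipocytes, and were read here as a sign of mesenteric fat attached to the intestine. These 8 genes were chosen by their symbols from the 22063 genes of the table, and all 8 were measured in all 12 libraries. The RNA came from the intestine of female C57BL6/J mice, for which no altered allele is named, bought at 7 to 8 weeks of age and kept for 1 week before irradiation. LL_TBI mice received 10 Gy total body irradiation at a low mean and a low instantaneous dose rate on a clinical Elekta linac, and LL_Ctrl mice are the non-irradiated controls of that mode. HH_TBI mice received 10 Gy at an ultra-high mean and an ultra-high instantaneous dose rate on a compact linear accelerator, and HH_Ctrl mice are its non-irradiated controls. All libraries carry the time label 48 h, and each group has 3 of them. The modes were given on different machines, so mode and machine cannot be told apart. Separate mice per library are not stated, and the p-values therefore cover only the spread from library to library, which may be technical.

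The mesentery holds the gut in place and carries fat along its vessels, so a piece of intestine can bring adipocytes with it. A white adipocyte stores triglyceride in a large lipid droplet coated with perilipins, and it secretes hormones such as adiponectin and leptin. Some proteins of this machinery also serve other cells: absorptive enterocytes make triglyceride and lipid droplets during fat absorption, and capillary endothelium takes up fatty acids.

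Levels are given as FPKM, fragments scaled by transcript length and by the mapped reads of a library, so levels can be set side by side between genes. Read depth is unknown, because counts were not used here, and no counting interval is given. The FPKM of a library summed to between 532489 and 620029. The 10 listed enterocyte genes, such as Vil1 and Fabp2, together had 14071 to 38630 FPKM in the 12 libraries, so the labelled tissue showed its markers in each. A few libraries stood apart. LL_TBI 1 and LL_TBI 2 were rich in pancreatic acinar genes. The 21 listed genes other than Zg16 took 6.37% and 23.0% of the summed FPKM there, against 0.0118% to 0.0659% in the other 10 libraries. Zg16, which goblet cells of the gut also make, had 2261 to 4788 FPKM in the 12 libraries. The ileal bile acid binding gene Fabp6 had 586 FPKM in HH_TBI 3 and 82.2 FPKM in LL_TBI 3, against at most 8.75 FPKM elsewhere. In bulk tissue, fewer cells of a type and less RNA per cell cannot be told apart.

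Promoter windows are shown for 3 of the genes, since Adipoq and Plin1 had the common pattern described below and Cidec did not. They are the 250 bases before the annotated start, from RefSeq on GRCm38.p6, and 6 of the 8 genes matched the table with 7 windows, because Cidec has 2 starts that lie 996 bases apart. Fabp4 and Car3 had no entry. Capitals mark matches, on either strand, to CCAAT (the CCAAT box) or TTGCNCAA (a motif of the C/EBP factors, which act in adipocyte differentiation). The windows lie at chr16:23146286-23146535 on the plus strand for Adipoq, at chr7:79732777-79733026 on the minus strand for Plin1, and for Cidec at chr6:113435761-113436010 and chr6:113434765-113435014 on the minus strand. Each is printed 5′ to 3′ on the strand of the gene.
Adipoq: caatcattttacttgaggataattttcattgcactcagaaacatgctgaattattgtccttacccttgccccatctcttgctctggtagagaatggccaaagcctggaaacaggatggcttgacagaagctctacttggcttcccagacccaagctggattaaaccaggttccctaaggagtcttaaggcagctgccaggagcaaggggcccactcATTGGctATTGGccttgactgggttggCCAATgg
Plin1: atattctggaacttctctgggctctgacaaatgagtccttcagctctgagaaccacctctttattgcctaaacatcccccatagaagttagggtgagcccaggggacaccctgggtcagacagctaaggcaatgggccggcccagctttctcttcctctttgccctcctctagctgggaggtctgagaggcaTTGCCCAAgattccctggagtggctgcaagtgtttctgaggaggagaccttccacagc
Cidec, start 1: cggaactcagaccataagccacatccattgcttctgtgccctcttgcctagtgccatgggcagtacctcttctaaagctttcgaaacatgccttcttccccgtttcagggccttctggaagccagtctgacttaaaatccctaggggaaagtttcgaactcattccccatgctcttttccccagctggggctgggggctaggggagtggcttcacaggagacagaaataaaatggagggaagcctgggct
Cidec, start 2: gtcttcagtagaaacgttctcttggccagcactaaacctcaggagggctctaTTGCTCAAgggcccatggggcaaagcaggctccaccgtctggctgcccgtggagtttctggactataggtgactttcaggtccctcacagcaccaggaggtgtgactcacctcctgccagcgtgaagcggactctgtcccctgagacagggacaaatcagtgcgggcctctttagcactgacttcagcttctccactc

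Adipoq carried 3 CCAAT matches, beginning 34, 27 and 7 bases before the start, and no TTGCNCAA. Plin1 carried TTGCNCAA beginning 58 bases before the start, Lep carried it 55 bases before the start, and the second Cidec start carried it at 198 bases. The first Cidec start and Cfd had neither motif, and Plin4 had 1 CCAAT match at 18 bases. The motifs did not overlap each other in these windows. Of all 32851 windows of the same length, 33.8% held CCAAT and 2.61% held TTGCNCAA. AGGTCA (a nuclear receptor half-site) and TATAAA (the TATA box) were also searched on both strands, occurred in 14% and 12.4% of all windows, and in none of the 7. The matches describe these windows only.

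Among the secreted products, Adipoq encodes adiponectin, an abundant hormone of fat. Adipoq (ENSMUSG00000022878) had 4.24, 0.812 and 21.8 FPKM in LL_TBI 1, 2 and 3, against 1.29, 7.42 and 7.41 FPKM in LL_Ctrl 1, 2 and 3. It had 7.56, 0.097 and 4.06 FPKM in HH_TBI 1, 2 and 3, against 3.98, 2.76 and 4.91 FPKM in HH_Ctrl 1, 2 and 3. LL_TBI 3 stood highest and HH_TBI 2 lowest, both of them irradiated, and each irradiated group overlapped its controls. The highest library was 225 times the lowest, and the next lowest after HH_TBI 2 was LL_TBI 2 at 0.812 FPKM.

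Cfd (ENSMUSG00000061780) encodes complement factor D, also called adipsin, a protease that fat secretes into blood. Its levels were 20.1, 5.67 and 99.4 FPKM in LL_TBI 1, 2 and 3, against 3.71, 25.6 and 21.9 FPKM in LL_Ctrl 1, 2 and 3. HH_TBI 1, 2 and 3 had 29.4, 0.048 and 21.7 FPKM of Cfd, against 27.1, 21.7 and 33.2 FPKM in HH_Ctrl 1, 2 and 3. The same extremes appeared as for Adipoq, with HH_TBI 2 close to 0 while the other libraries of its mode lay within a narrow band. Cfd spanned 2071-fold over the 12 libraries, the widest span of the members with no library at 0. That span rests on the 0.048 FPKM of HH_TBI 2, and the next lowest library was LL_Ctrl 1 at 3.71 FPKM.

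Lep (ENSMUSG00000059201), the gene of the satiety hormone leptin, was near 0 throughout. Lep had 0.025, 0.077 and 0.27 FPKM in LL_TBI 1, 2 and 3, against 0.012, 0.167 and 0.671 FPKM in LL_Ctrl 1, 2 and 3. The HH_TBI libraries 1, 2 and 3 had 0.093, 0.013 and 0.024 FPKM, and Lep was listed at 0 in HH_Ctrl 1 and 2 and at 0.041 FPKM in HH_Ctrl 3. LL_Ctrl 3 was highest and the groups of each mode overlapped. Its mean lay under 0.5 FPKM in every comparison, so it was left out of the tests.

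On the lipid droplet, Plin1 (ENSMUSG00000030546) encodes perilipin 1, which coats the droplet of adipocytes and guards it from lipases. Plin1 had 1.68, 0.482 and 5.72 FPKM in LL_TBI 1, 2 and 3, against 0.138, 1.58 and 2.19 FPKM in LL_Ctrl 1, 2 and 3. In HH_TBI 1 and 3 it had 2.09 and 0.524 FPKM and in HH_TBI 2 it was listed at 0, against 0.824, 0.387 and 0.833 FPKM in HH_Ctrl 1, 2 and 3. It repeated the order of Adipoq at the ends. The HH_TBI libraries lay on both sides of HH_Ctrl, and those of LL_TBI overlapped LL_Ctrl, with none under LL_Ctrl 1.

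Plin4 (ENSMUSG00000002831), another perilipin, which is also made in muscle, was low and differed more by group. It had 0.928, 1.05 and 3.28 FPKM in LL_TBI 1, 2 and 3, against 0.323, 1.11 and 1.18 FPKM in LL_Ctrl 1, 2 and 3. The HH_TBI libraries had 1.87, 0.764 and 0.365 FPKM, against 2.14, 1.99 and 2.78 FPKM in HH_Ctrl. LL_TBI 3 was again the highest, but the lowest was LL_Ctrl 1, and every HH_TBI library lay under every HH_Ctrl library.

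Cidec (ENSMUSG00000030278), which encodes a protein that fuses small lipid droplets into larger ones, was the most abundant member in 11 libraries and behaved unlike the others. Cidec had 81.6, 60.5 and 71.4 FPKM in LL_TBI 1, 2 and 3, against 57.6, 78.6 and 79.6 FPKM in LL_Ctrl 1, 2 and 3. Levels of 76.9, 84.3 and 100.4 FPKM were found in HH_TBI 1, 2 and 3, against 139, 118 and 119 FPKM in HH_Ctrl 1, 2 and 3. The full span was 2.42-fold, LL_TBI 3 was not its highest library, and HH_TBI 2, lowest for Adipoq, was in its middle range. All 3 HH_Ctrl libraries lay above the other 9. The exception in abundance was LL_TBI 3, in which Cfd was higher than Cidec.

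Fabp4 (ENSMUSG00000062515) encodes the fatty acid binding protein of adipocytes, which macrophages and capillary endothelium also make. Fabp4 had 15.9, 15.8 and 70.2 FPKM in LL_TBI 1, 2 and 3, against 14.7, 26.5 and 29.6 FPKM in LL_Ctrl 1, 2 and 3. The values were 41.1, 8.20 and 38.8 FPKM in HH_TBI 1, 2 and 3, against 16.6, 9.52 and 26.6 FPKM in HH_Ctrl 1, 2 and 3. The ends were the same as for Adipoq, but the floor was higher. In HH_TBI 2 Fabp4 was 84.5 times Adipoq, against 3.22 to 19.4 times in the other 11 libraries, and the span was 8.57-fold.

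Car3 (ENSMUSG00000027559) encodes carbonic anhydrase 3, abundant in fat and also in slow skeletal muscle. Car3 had 10.3, 4.50 and 54.7 FPKM in LL_TBI 1, 2 and 3, against 1.73, 14.6 and 16.6 FPKM in LL_Ctrl 1, 2 and 3. In HH_TBI 1, 2 and 3 it had 37.3, 0.175 and 12 FPKM, against 7.41, 4.43 and 7.23 FPKM in HH_Ctrl 1, 2 and 3. It spanned 313-fold between the same 2 libraries as Adipoq, and the next lowest after HH_TBI 2 was LL_Ctrl 1 at 1.73 FPKM. The HH_TBI libraries lay on both sides of HH_Ctrl. The LL_TBI libraries overlapped LL_Ctrl, with none under LL_Ctrl 1.

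**Figure D1:**
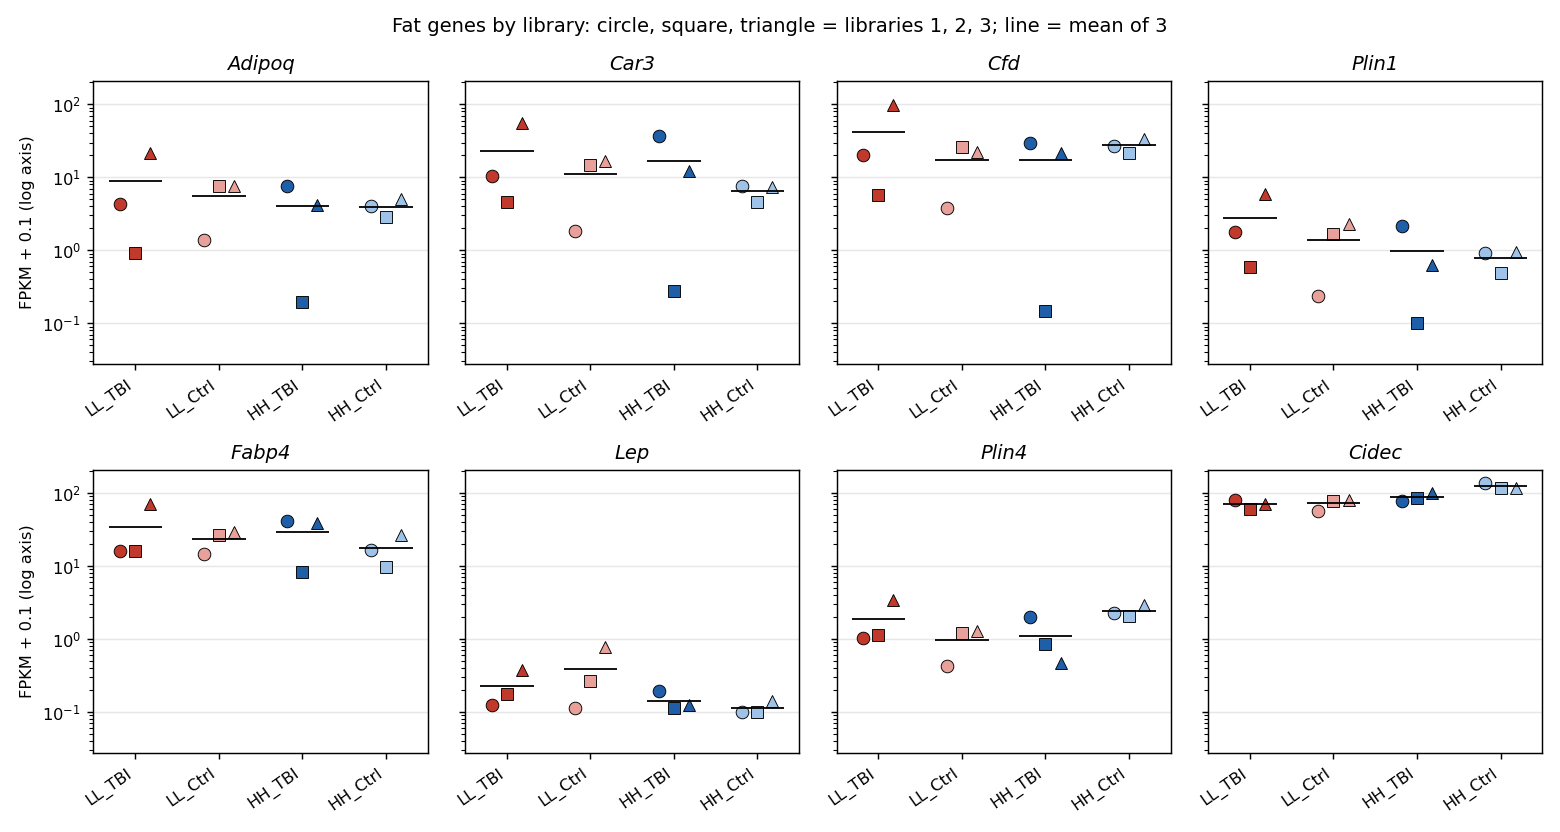
FPKM plus 0.1 (log axis) of the 8 fat genes in each library, with libraries 1, 2 and 3 of a group as circle, square and triangle and the mean of the 3 as a line. LL_TBI 3 (triangle) is the highest and HH_TBI 2 (square) the lowest library for Adipoq, Car3, Cfd, Plin1 and Fabp4, while Cidec stays between 57.6 and 139 FPKM.

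LL_TBI 3 was the highest library for 6 of the 8 genes, all but Lep and Cidec. HH_TBI 2 was the lowest for 5 of them, Adipoq, Plin1, Cfd, Car3 and Fabp4. Most of the variation of these 5 lay within groups: 90.6% of the sum of squares on the log2(FPKM + 0.1) scale for Adipoq, 92.0% for Car3, 91.0% for Fabp4, 80.9% for Plin1 and 80.7% for Cfd. The median over the 12921 genes averaging 0.5 FPKM or more was 39.3%, and Cidec had 20.7%. Within groups the SD was 2.50 log2 units for Cfd, 2.26 for Car3, 1.96 for Adipoq, 1.67 for Plin1 and 1.01 for Fabp4. That of Cidec was 0.21, under the median of 0.27 over all those genes.

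A fat level was formed as the mean log2(FPKM + 0.1) of the 8 genes. It was 2.26, 1.43 and 4 in LL_TBI 1, 2 and 3, against 0.82, 2.70 and 2.98 in LL_Ctrl 1, 2 and 3. HH_TBI 1, 2 and 3 had 3.05, -0.52 and 2.15, against 2.33, 1.87 and 2.56 in HH_Ctrl 1, 2 and 3. The HH_Ctrl libraries were close together, LL_Ctrl 1 lay below the other controls, and both irradiated groups were wide. Summed FPKM gave another order, since Cidec made up 21.8% of the sum in LL_TBI 3 and 90.1% in HH_TBI 2.

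The 5 genes with common extremes moved together over the 12 libraries. Their 10 pairs had Pearson correlations of 0.70 to 0.95 and Spearman correlations of 0.71 to 0.93. With the group means removed the Pearson values were 0.86 to 0.98, and without the 2 libraries farthest from the median they were 0.54 to 0.89. Against the mean of the other 7 members, the correlation was 0.97 for Adipoq, 0.96 for Car3, 0.95 for Plin1, 0.90 for Cfd and 0.80 for Fabp4. It was 0.52 for Plin4, 0.51 for Lep and 0.076 for Cidec. Over the LL libraries alone the value for Cidec was 0.66, and over the HH libraries alone 0.22. The libraries share their scaling and part of their groups, so these correlations are descriptions over 12 points.

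**Figure D2:**
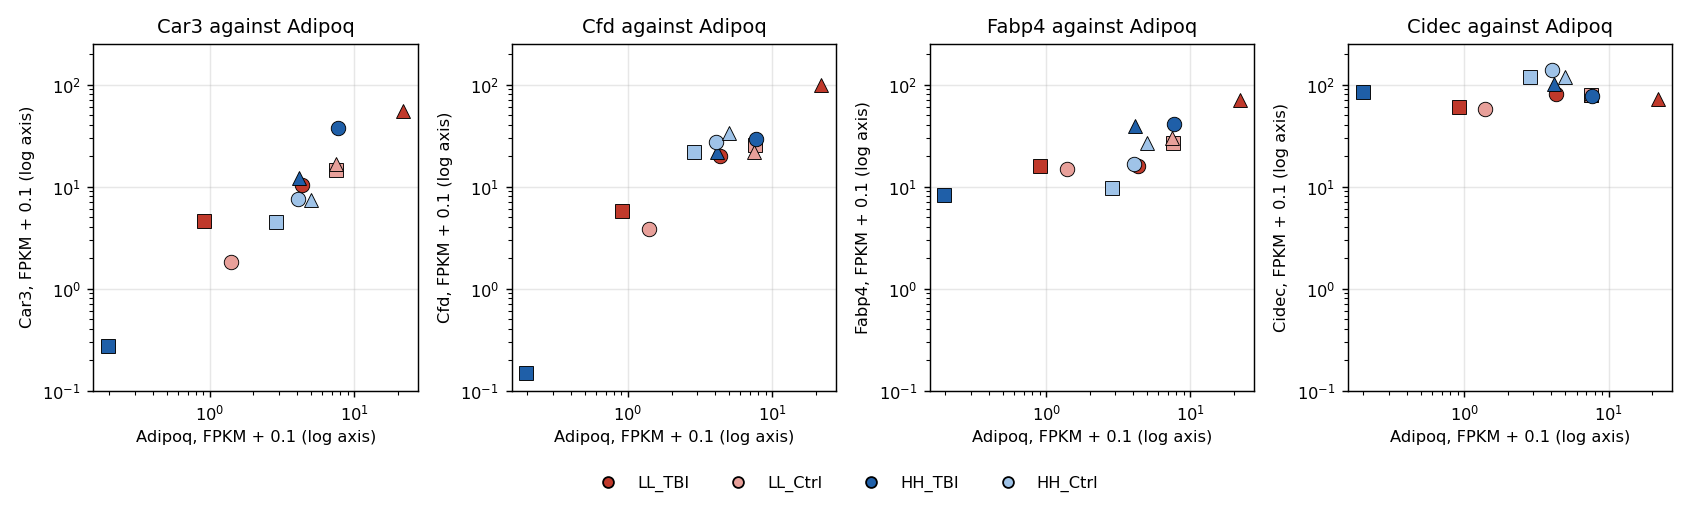
FPKM plus 0.1 of Car3, Cfd, Fabp4 and Cidec against Adipoq, on log axes, 1 point per library with colours for the groups (circle, square and triangle for libraries 1, 2 and 3). Car3, Cfd and Fabp4 are higher where Adipoq is higher, with Fabp4 still at 8.2 FPKM in HH_TBI 2. Cidec stays in a narrow range. Its Pearson correlation with Adipoq is 0.13 over the 12 libraries, 0.70 over the LL libraries alone and 0.29 over the HH libraries alone.

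Outside the 8 genes, likeness to the fat level was ranked over the 12 libraries among 11722 genes averaging 1 FPKM or more. The median correlation was 0.085, and 18 genes exceeded 0.7. The first was Retn (0.92), which encodes the mouse adipocyte hormone resistin. Retn had 1.81, 0.384 and 5.66 FPKM in LL_TBI 1, 2 and 3, against 0.507, 2.88 and 2.35 FPKM in LL_Ctrl 1, 2 and 3. It had 1.09 and 2.12 FPKM in HH_TBI 1 and 3 and was listed at 0 in HH_TBI 2, against 1.60, 0.43 and 2.38 FPKM in HH_Ctrl 1, 2 and 3. Its ends were those of Adipoq. Next came Nnat (0.88), the imprinted gene of neuronatin, and Cyp2e1 (0.85), a cytochrome P450 abundant in liver and also found in fat. Then followed Tbc1d10a (0.82), Trf (0.80), which encodes transferrin, Klc1 (0.77), a kinesin light chain, Trmt10b (0.77), Rbp4 (0.76), the retinol carrier that liver and fat secrete, and Elk1 (0.76), an ETS transcription factor. Without the 2 farthest libraries Nnat had 0.84 and Retn 0.74, and Trmt10b had 0.40 and Rbp4 0.46.

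**Figure D3:**
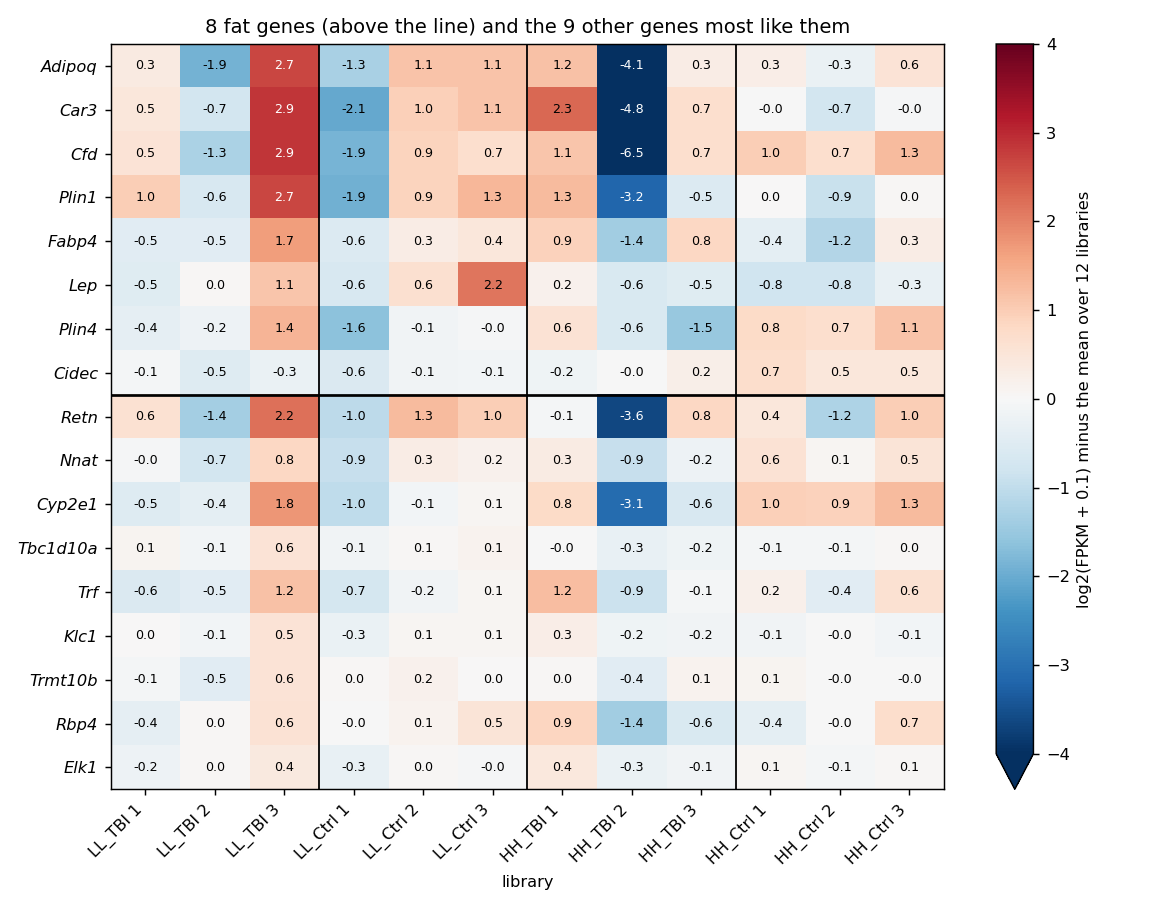
Values of log2(FPKM + 0.1) minus the mean over the 12 libraries (colour, clipped at the low end, with the value printed in each cell) for the 8 fat genes above the line and the 9 other genes most like their mean below it. Adipoq, Car3, Cfd and Plin1 and, below the line, Retn share a high LL_TBI 3 and a low HH_TBI 2.

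Other adipocyte genes were taken from lists. The mean of 8 hormone and secreted-product genes had a correlation of 0.86 with the fat level. Its genes were uneven: beside Retn, Nnat and Rbp4, given above, Orm1 had 0.56 and Agt 0.54, while Apln had 0.038, Angptl4 -0.14 and Nrg4 -0.15. The mean of the 10 adipocyte identity genes had 0.71, with 0.98 over the LL libraries alone and 0.38 over the HH libraries alone. Among them Adrb3, the beta-3 adrenergic receptor, had 0.83 and Trarg1, a protein of insulin-regulated vesicles, had 0.81, both at means under 0.5 FPKM. Aqp7, a glycerol channel, had -0.044 at a mean of 10.8 FPKM. The rest of the identity genes ran from 0.16 for Hcar1 to 0.64 for Sncg. The other lists of fat metabolism lay lower, with 0.52 for fatty acid and triglyceride synthesis, 0.51 for droplet and lipolysis genes, 0.48 for fatty acid uptake, 0.10 for adipogenic regulators and -0.12 for brown fat genes. For the brown fat gene Ucp1, 11 libraries were listed at 0 and HH_TBI 2 had 0.077 FPKM.

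Cidec, Plin4 and Fabp4 each had their own neighbours on the lists. Cidec correlated over the 12 libraries at 0.87 with Agpat2 and 0.85 with Dgat2, enzymes of triglyceride synthesis, and at 0.85 with Pck1, the glyceroneogenic and gluconeogenic carboxykinase. Its correlation was 0.70 with the enterocyte list, -0.81 with the endothelium list and -0.77 with the macrophage list. The HH_Ctrl libraries, highest for Cidec, were also highest for the enterocyte list and lowest for the endothelium and macrophage lists. By mean log2 level, endothelium had 0.23 to 0.75 in HH_Ctrl, against 1.62 to 2.61 in the other groups. Macrophages had 0.81 to 1.55 in HH_Ctrl, against 3.09 to 4.26. These correlations of Cidec include that group difference, and a relation within groups was not tested. Plin4 had 0.89 with Slc2a4, the insulin-regulated glucose transporter of fat and muscle, 0.85 with the smooth muscle myosin Myh11 and 0.82 with the smooth muscle list. Fabp4 had 0.87 with Gpihbp1, the capillary anchor of lipoprotein lipase, 0.86 with Agt (angiotensinogen) and 0.81 with Retn. Set against the label of attached fat, Adipoq, Plin1, Cfd, Car3 and, with a higher floor, Fabp4 shared 1 pattern that Cidec lacked over the 12 libraries. Cidec had 84.3 FPKM in HH_TBI 2, where Adipoq, Cfd and Car3 had 0.175 FPKM or less.

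Cell types that neighbour mesenteric fat were set beside the fat level. The 10 mesothelium genes, which mark the lining of gut and mesentery, summed to 35 FPKM in LL_TBI 3, against 2.66 to 18.8 FPKM in the other 11 libraries. Their correlation with the fat level was 0.58, and -0.29 without the 2 farthest libraries. The 8 smooth muscle genes summed to 1356 FPKM in LL_TBI 3, against 362 to 793 FPKM in the others, with a correlation of 0.50. By mean log2(FPKM + 0.1), LL_TBI 3 was also the highest library for fat stroma (3.49), endothelium (2.61) and macrophages (4.26). Pancreatic acinar genes had a correlation of 0.0047, fat stroma 0.26, endothelium 0.23, macrophages 0.089, lymph node 0.048, ileum 0.33, striated muscle 0.47 and enterocytes 0.036. With the group means removed the values were 0.77 for endothelium, 0.65 for ileum, 0.62 for fat stroma, 0.60 for macrophages, 0.60 for striated muscle, 0.57 for mesothelium and 0.48 for smooth muscle, against -0.32 for pancreatic genes, 0.15 for lymph node and 0.32 for enterocytes. LL_TBI 1 and 2, rich in pancreatic genes, had fat levels within the range of LL_Ctrl. The part of these cell types in the member values was not tested.

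**Figure D4:**
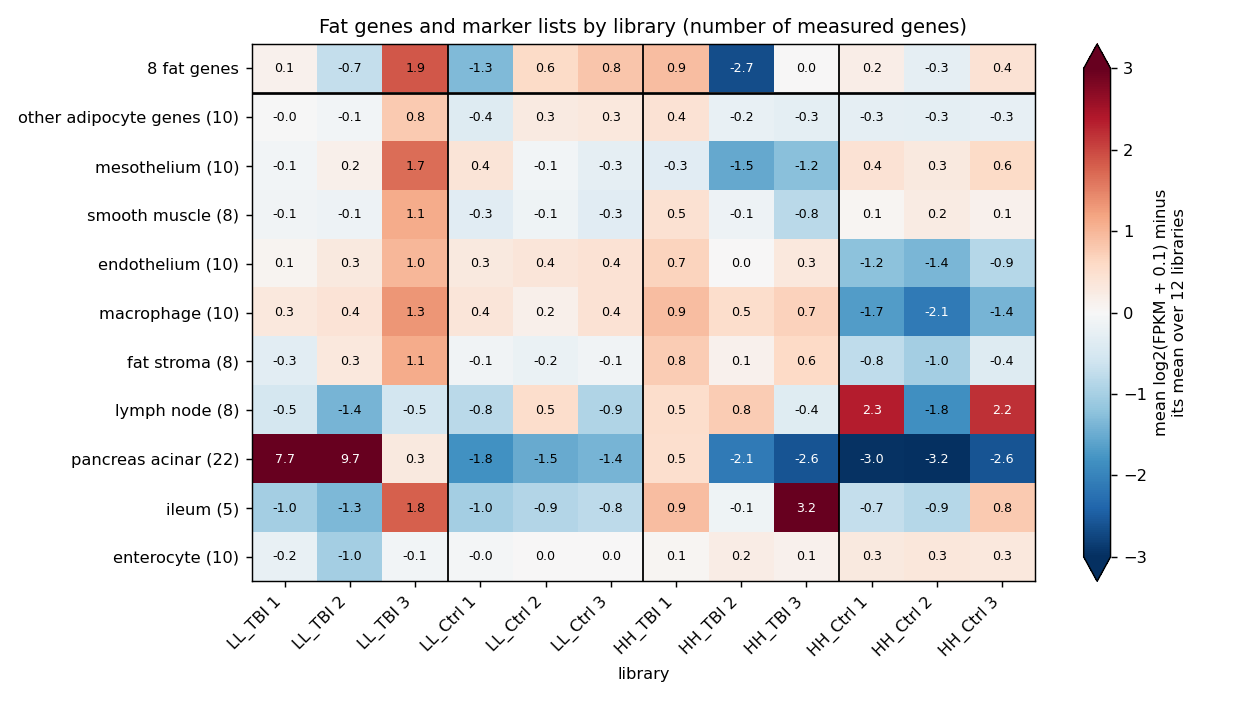
Mean log2(FPKM + 0.1) of the 8 fat genes (top) and of 10 lists, each minus its mean over the 12 libraries, by library (colour clipped at both ends, values printed). LL_TBI 3 is highest for the fat genes, the 10 identity genes (other adipocyte genes), mesothelium, smooth muscle, endothelium, macrophages and fat stroma. The 8 hormone genes are not drawn, and their mean was 1.71 in LL_TBI 3 and 2.05 in HH_Ctrl 3, their highest library. HH_TBI 2 is the lowest for the fat genes and mesothelium, and the pancreatic genes are high in LL_TBI 1 and 2.

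Whether irradiation in the LL mode changed the fat genes was asked by setting LL_TBI against LL_Ctrl. None of the 7 members tested was called by limma at an adjusted p under 0.05 and a log2 fold change past 1. Of all 12946 genes 0.247% were called. An unadjusted p under 0.05 was found for 0 members and for 2366 of the 12946 genes. None of the 8 had groups that did not overlap, against 28.9% of all genes. The log2 fold changes were 0.91 ± 1.04 (SE) for Plin1, 0.87 ± 0.59 for Plin4, 0.85 ± 1.08 for Car3, 0.81 ± 1.09 for Cfd, 0.20 ± 0.58 for Fabp4, 0.048 ± 1.14 for Adipoq and -0.011 ± 0.21 for Cidec. Their adjusted p from limma lay between 0.448 for Plin4 and 0.985 for Adipoq. The members' median was 0.81, against -0.12 over all genes. Without LL_TBI 3, Adipoq, Car3, Cfd and Fabp4 turned to -1.11, -0.14, -0.26 and -0.51, none of them called. Without both pancreas-rich libraries, which left LL_TBI 3 as the sole LL_TBI library, Fabp4 was called higher (1.63, adjusted p = 0.0266 by limma, where 9.89% of all genes were called higher), with that lone library assumed to vary like LL_Ctrl.

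For the HH mode, HH_TBI was set against HH_Ctrl. Again none of the 7 members was called, where limma called 12.4% of 12760 genes. Plin4 and Cidec had an unadjusted p under 0.05, as did 6053 of the 12760 genes. Cidec averaged 87.2 ± 12 FPKM in the HH_TBI libraries, against 125 ± 12.1 FPKM in the HH_Ctrl libraries (SD, n = 3 each), a log2 fold change of -0.53 ± 0.13 whose adjusted p of 0.0179 passed while its size did not reach 1. The adjusted p alone was passed by 36.2% of all genes. Plin4 averaged 1 ± 0.78 FPKM in the HH_TBI libraries, against 2.30 ± 0.42 FPKM in the HH_Ctrl libraries (SD, n = 3 each), with -1.36 ± 0.49 and an adjusted p of 0.0630 by limma. These 2 genes were also the 2 of 8 without overlap, both below their controls, as 21.7% of all genes were and 51.9% in either direction.

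The other 5 members overlapped between HH_TBI and HH_Ctrl. Their log2 fold changes were -2.57 ± 1.80 for Cfd, -1.07 ± 1.20 for Adipoq, -0.54 ± 1.00 for Plin1, -0.34 ± 1.56 for Car3 and 0.55 ± 0.63 for Fabp4, with adjusted p from 0.293 to 0.882 by limma. The members' median was -0.54, against 0.086 over all genes. HH_TBI 2 weighed heavily on these values. Without it, Cfd was at -0.092, Adipoq at 0.54 and Plin1 at 0.64, and 2 members were called higher, Car3 at 1.75 (adjusted p = 0.0286) and Fabp4 at 1.3 (adjusted p = 0.0379), where 10.2% of all genes were called higher. Without HH_TBI 1, Plin4 was called lower at -1.91 (adjusted p = 0.0127), as were 2.58% of all genes, and under median-ratio scaling of the libraries it was called lower at -1.47 (adjusted p = 0.0318), as were 3.53%.

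The control groups were compared as HH_Ctrl against LL_Ctrl, both of them untreated by their labels, which set them apart only by the mode they are controls of. Of the 7 members tested 1 was called, Plin4, higher in HH_Ctrl, where limma called 2.31% of 12595 genes higher and 14.2% in either direction. Plin4 averaged 2.30 ± 0.42 FPKM in HH_Ctrl and 0.869 ± 0.474 FPKM in LL_Ctrl (SD, n = 3 each), a log2 fold change of 1.45 ± 0.42 with an adjusted p of 0.0253. Cidec averaged 125 ± 12.1 FPKM in HH_Ctrl and 71.9 ± 12.5 FPKM in LL_Ctrl (SD, n = 3 each), and its 0.81 ± 0.14 passed the adjusted p (0.00292), as 44.8% of all genes did, but not the fold. Both genes lay above LL_Ctrl without overlap, as did 19.5% of all genes, while 57.7% did not overlap in either direction.

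For the other members the control groups overlapped, with 1.07 ± 0.66 for Cfd, -0.14 ± 0.63 for Adipoq, -0.28 ± 0.78 for Car3, -0.37 ± 0.80 for Plin1 and -0.48 ± 0.39 for Fabp4, and adjusted p of 0.224 to 0.872 by limma. The call of Plin4 was lost without LL_Ctrl 1 (0.94, under the fold), without HH_Ctrl 1 (adjusted p = 0.0592) and without HH_Ctrl 3 (adjusted p = 0.0703). LL_Ctrl 1 was the control lowest in fat genes, and without it Car3 (-1.31, adjusted p = 0.0068) and Plin1 (-1.39, adjusted p = 0.0240) were called lower in HH_Ctrl, as were 12.3% of all genes. The comparisons of HH_Ctrl with LL_Ctrl and of HH_TBI with HH_Ctrl share the HH_Ctrl libraries. With all 6 control libraries as the control of HH_TBI, Plin4 was at -0.63 (adjusted p = 0.525) and Cidec at -0.12 (adjusted p = 0.790).

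**Figure D5:**
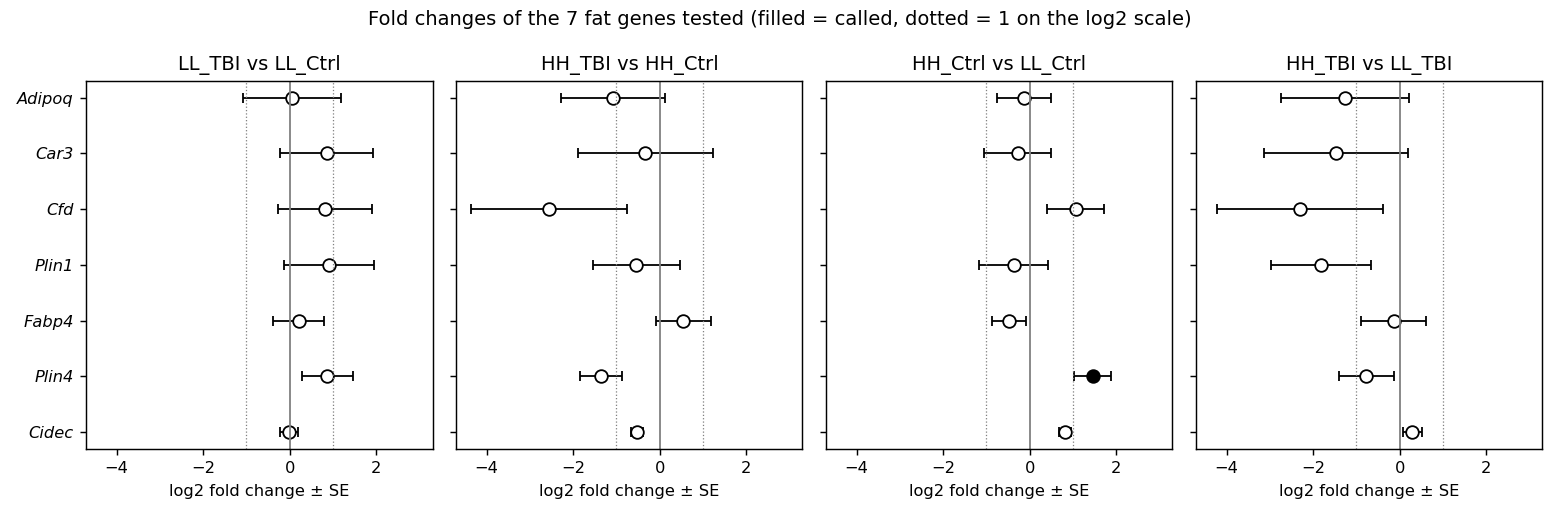
Log2 fold changes with SE of the 7 fat genes tested in the 4 comparisons between groups, with filled points for called genes and dotted lines at the fold threshold. Plin4 in HH_Ctrl vs LL_Ctrl (1.45) is the only filled point, Cidec has the shortest bars, and Cfd has the widest in HH_TBI vs HH_Ctrl.

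Between the irradiated groups, HH_TBI against LL_TBI, no member was called and no member was free of overlap, where 17.1% of 13049 genes did not overlap. Limma called 0 of these genes, although 1458 had an unadjusted p under 0.05. The log2 fold changes were -2.31 ± 1.92 for Cfd, -1.82 ± 1.16 for Plin1, -1.47 ± 1.67 for Car3, -1.26 ± 1.48 for Adipoq, -0.78 ± 0.63 for Plin4, -0.14 ± 0.74 for Fabp4 and 0.30 ± 0.21 for Cidec. Without HH_TBI 2 Cfd, Car3 and Adipoq turned to 0.16, 0.62 and 0.35, and without LL_TBI 3 they were -1.24, -0.47 and -0.11. The difference between the responses, the HH fold change minus the LL fold change, passed the adjusted p for no member, against 7.37% of 12921 genes. Plin4 had the smallest p, with -2.23 ± 0.85 (adjusted p = 0.128 by limma), and Cidec had -0.52 ± 0.24 (adjusted p = 0.218). For Adipoq the difference was -1.12 ± 1.88, and 0.49 without HH_TBI 2.

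The other genes of fat metabolism were counted from lists. In LL_TBI vs LL_Ctrl and in HH_TBI vs LL_TBI, limma called 0 genes of every list. In HH_TBI vs HH_Ctrl, where 10.0% of all genes were called higher and 2.38% lower, 1 of 7 hormone genes fell, Angptl4 (-2.28), an inhibitor of lipoprotein lipase that fasting induces. Of 6 identity genes, the lactate receptor Hcar1 (2.04) rose and Slc2a4 (-1.16) fell, and of 7 adipogenic regulators Klf15 (-1.09) fell. Of 10 droplet and lipolysis genes G0s2 (1.04), an inhibitor of triglyceride lipase, rose. Of 16 synthesis genes the desaturase Scd2 (1.27) rose and Pck1 (-1.97) fell. None of 6 uptake genes and none of 3 brown fat genes was called.

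Between the controls, 2.31% of all genes were called higher in HH_Ctrl than in LL_Ctrl and 11.9% lower. Angptl4 (1.90) of 7 hormone genes and Pck1 (2.21) of 16 synthesis genes were higher. Lower were Hcar1 (-1.51) and the phosphodiesterase Pde3b (-1.20) of 6 identity genes, and the adipogenic receptor Pparg (-1.78) of 7 regulators. Elovl6 (-1.18) and Me1 (-1.87) of 16 synthesis genes were lower too. Of 6 uptake genes the fatty acid transporter Cd36 (-2.19) was lower, and of 3 brown fat genes the regulator Prdm16 (-1.05). For 10 droplet and lipolysis genes no call was made between the controls. Pparg and Cd36 are also made by macrophages and enterocytes. The list medians were -0.059 for uptake and 0.38 for the adipogenic regulators. For the difference between the responses, 870 of all 12921 genes passed toward a higher HH response and 82 toward a lower one. Of 6 identity genes Hcar1 (1.96) passed toward a higher HH response and Slc2a4 (-1.75) toward a lower one. Of 7 adipogenic regulators Klf15 (-1.51) passed toward a lower one. From the hormone, droplet, synthesis, uptake and brown fat lists 0 genes passed.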

How the data were processed

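Intestinal RNA of 12 libraries was analysed, 3 per group as the labels give them. The deposited values are FPKM per gene, which the authors obtained with StringTie, while Bowtie 0.12.2 is listed, with 3 builds (GRCm39, mm39 and mm8) whose roles are not given, in the submitters' processing notes. The labels and the methods describe library preparation differently (ribosomal RNA removal against oligo(dT) beads). Depth is unknown, so 0 is reported as listed. Columns were matched to samples through the titles, which write WBI for TBI. The members and lists were chosen with earlier results of these data known.

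Values were taken as log2(FPKM + 0.1). This scale understates changes of low genes. Groups were fitted with limma-trend (limma 3.58.1, R 4.3.3) for genes averaging 0.5 FPKM or more in the libraries of a comparison, and p-values were Benjamini-Hochberg adjusted over all of them. Calls needed an adjusted p below 0.05 together with a log2 fold change past 1 in size, or only the adjusted p for the difference between the responses. The procedure was tested on simulated data. Text genes are the 8 members, the 10 genes most like their mean (averaging 1 FPKM or more; of these 9 are reported here), and, of 19 lists (182 genes, 180 measured), up to 4 with the highest mean and up to 4 called with the smallest p. Vil1, Fabp2, Adrb3, Trarg1, Apln, Orm1 and the list genes most like Cidec, Plin4 or Fabp4 were named after their values were seen. Alternatives were a pseudocount of 1, no filter, median-ratio scaling, removal of pancreatic genes, the replicate block, all libraries in one fit, all controls, the adjusted p alone, and each library left out. Leaving out both pancreas-rich libraries was chosen after seeing the data. Tables and plots used Python 3.11.15, pandas 2.3.3, numpy 2.4.6, scipy 1.17.1 and matplotlib 3.10.9.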

Additional observations from a re-analysis of the deposited data

How the results depend on the processing

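Of 518 alternative values of the 35 member log2 fold changes, 476 kept their sign. Part of these could not turn. The adjusted p alone, no filter, the replicate block and all 12 libraries in one fit leave a fold change as it was. In LL_TBI vs LL_Ctrl 1 member was called without both pancreas-rich libraries (main count 0). In HH_TBI vs HH_Ctrl the count was 1 with median-ratio scaling and 1 with the adjusted p alone (main 0), and 0 to 2 with each library left out. In HH_Ctrl vs LL_Ctrl it was 0 with a pseudocount of 1, 0 with all 12 libraries in one fit and 2 with the adjusted p alone (main 1), and 0 to 2 with each library left out. The causes were not tested.

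Signs turned as follows. Cidec in LL_TBI vs LL_Ctrl was 0.074 with median-ratio scaling, 0.15 with pancreatic genes removed and 0.0045 without both pancreas-rich libraries. With a pseudocount of 1, Car3 was 0.21 and Plin1 0.0066 in HH_TBI vs HH_Ctrl. Adipoq was 0.021 in HH_Ctrl vs LL_Ctrl with median-ratio scaling, and the difference between the responses of Fabp4 was -1.08 without both pancreas-rich libraries. With each library left out in turn, LL_TBI vs LL_Ctrl gave -1.11 to 1.19 for Adipoq, -0.18 to 1.64 for Car3, -0.16 to 0.10 for Cidec, -0.11 to 1.73 for Plin1, -0.26 to 1.79 for Cfd and -0.51 to 0.56 for Fabp4. HH_TBI vs HH_Ctrl gave -2.10 to 0.54 for Adipoq, -1.79 to 1.75 for Car3 and -1.58 to 0.64 for Plin1. HH_Ctrl vs LL_Ctrl gave -0.95 to 0.27 for Adipoq, -1.31 to 0.28 for Car3 and -1.39 to 0.25 for Plin1. HH_TBI vs LL_TBI gave -2.40 to 0.35 for Adipoq, -2.92 to 0.62 for Car3, -3.65 to 0.16 for Cfd and -0.54 to 0.61 for Fabp4. The difference between the responses gave -2.26 to 0.49 for Adipoq, -2.64 to 0.90 for Car3 and -0.056 to 1.10 for Fabp4.

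Summed member FPKM, scaled to 1000000 per library, was 236, 146 and 527 in LL_TBI 1, 2 and 3, against 139.9, 280.4 and 280.8 in LL_Ctrl 1, 2 and 3, and 369, 174 and 314 in HH_TBI 1, 2 and 3, against 356, 277 and 341 in HH_Ctrl 1, 2 and 3. The correlation with the other members was 0.88 for Plin1 with a pseudocount of 1. For Cidec it was 0.36 with group means subtracted and -0.097 to 0.22 with each library left out.

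Same-number correlations of deviations ran from -0.095 to 0.29, and in no comparison were all above 0.1. Libraries of unlike number were not set beside them, so whether the library numbers pair the libraries cannot be told. With the replicate block the members called stayed at 0, 0, 1, 0 and 0 in the 5 fits, and all genes called in LL_TBI vs LL_Ctrl numbered 116 (main 32), in HH_TBI vs LL_TBI 9 (main 0). All-gene counts ranged over the alternatives from 3 to 1842 in LL_TBI vs LL_Ctrl, 792 to 4614 in HH_TBI vs HH_Ctrl (main 1584), 1065 to 5647 in HH_Ctrl vs LL_Ctrl (main 1790), 0 to 330 in HH_TBI vs LL_TBI and 69 to 2030 for the difference between the responses, the 792 being with all 6 controls. Median-ratio scaling moved the median of all genes by over 0.1 in HH_TBI vs HH_Ctrl (-0.017, main 0.086), HH_Ctrl vs LL_Ctrl (0.033, main -0.13) and the difference between the responses (-0.0066, main 0.18). Genes called higher and lower then numbered 1055 and 451 (main 1280 and 304), 406 and 1089 (main 291 and 1499) and 824 and 348 (main 870 and 82) in these 3 fits. The list removed with the pancreatic genes includes Zg16.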

Other observations

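Listed genes of fat stroma, endothelium, macrophages and mesothelium were called in number between the HH groups. In HH_TBI vs HH_Ctrl, all 6 tested genes of the fat stroma list rose, among them Pdgfra (2.80), a receptor of stromal progenitors. Their correlations with the fat level ran from 0.054 for Pdgfra to 0.26 for Cd34. Whether they came from attached fat was not tested. Also higher were 8 of 10 endothelium genes, among them Kdr (2.53) and Tek (2.40), and 10 of 10 macrophage genes, among them Mrc1 (3.04). Of 7 mesothelium genes Msln (-2.53), Upk3b (-2.94) and Rspo1 (-2.15) fell. Fabp2 rose among 10 enterocyte genes, and Pnliprp1 and Pnliprp2 rose among 19 pancreatic genes. Limma with Benjamini-Hochberg adjustment called 10.0% of all genes higher and 2.38% lower there. Of 8 smooth muscle, 8 lymph node, 5 ileal and 4 proximal intestinal genes none was called, and Ckm fell among 3 striated muscle genes and Car4 among 3 colon genes.

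Between the controls, 2 of 6 fat stroma genes, 8 of 10 endothelium genes and 9 of 9 macrophage genes were lower in HH_Ctrl than in LL_Ctrl, where 11.9% of all genes were called lower. Msln (1.26) was higher, as were Apoa1 (1.56) and Muc3a. Pancreatic genes were lower for 9 of 12 tested, and Acta1, Pdx1, Aqp8 and Slc26a3 were lower on the muscle, proximal intestine and colon lists. For the difference between the responses, 1 fat stroma, 3 endothelium and 7 macrophage genes and the colon gene Slc26a3 passed with a higher HH response, and 3 mesothelium genes and Ckm with a lower one. The HH_Ctrl libraries stand in both comparisons.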
